A study of Homo sapiens with 8 samples.

Results

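The heterogeneous nuclear ribonucleoproteins (hnRNPs), the polypyrimidine tract binding (PTB) proteins, the poly(C)-binding proteins and proteins of the FET type (EWSR1 and TAF15) or related to them were followed as 31 genes, taken by their symbols from the 17056 genes of the expression table. All 31 symbols have a row, and 30 reached a mean of at least 1 FPKM (fragments scaled by transcript length and library size) over the 8 libraries and were tested. The exception was HNRNPH2. The libraries are RNA-seq of A549 cells, a long-established line from a human lung adenocarcinoma, in 4 groups of 2: cells with a vector as control (vector control), cells overexpressing the long non-coding RNA AFAP1-AS1 (overexpression), a negative control that the titles name ASONC (knockdown control), and AFAP1-AS1 knockdown, named ASO in the titles (knockdown). The labels name neither the vector, nor the knockdown reagent, nor the time of harvest, and they do not say that replicates are separate cultures. The p-values therefore rest on the spread between the libraries at hand, and that spread may be technical only. The level of AFAP1-AS1, the targeted RNA, is not analysed here and gives no check of the labels.

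As background, hnRNPs coat nascent transcripts in the nucleus, where they help to choose splice sites and polyadenylation sites and accompany messenger RNA to the cytoplasm. Most bind RNA through RNA recognition motifs or KH domains, come in families of close paralogs, and several limit their own level by turning their transcript into a form that nonsense-mediated decay removes. The FET proteins and TARDBP (TDP-43) are nuclear proteins of the same kind with aggregation-prone segments, best known from neurodegeneration and, for EWSR1, from sarcoma fusions.

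In the vector control libraries the members spanned an 80.9-fold range of FPKM, a scale that divides by transcript length. The order began with HNRNPA2B1 at 355 ± 7.10 FPKM (SD, n = 2 here and for every group mean below), HNRNPA1 at 334 ± 2.02, HNRNPK at 294 ± 4.03 and PCBP1 at 261 ± 3.22. The first pair are the core packaging proteins of the A/B type, and the next pair are KH-domain proteins that bind C-rich RNA. It ended with PTBP3 at 32.0 ± 1.60, HNRNPA0 at 22.7 ± 0.29, HNRNPLL at 11.5 ± 0.22 and PTBP2, the form of PTB best known from neurons, at 4.38 ± 0.25. Of the 29 neighbouring pairs in this order, 2 had overlapping libraries, HNRNPAB with HNRNPU and HNRNPL with HNRNPH1. HNRNPH2 was all but unread, at 0 to 7 reads and 0 to 0.082 FPKM per library, and 16.3% of its exonic length is shared with the readthrough gene RPL36A-HNRNPH2 in GENCODE 29. No fold change is given for it.

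**Figure D1:**
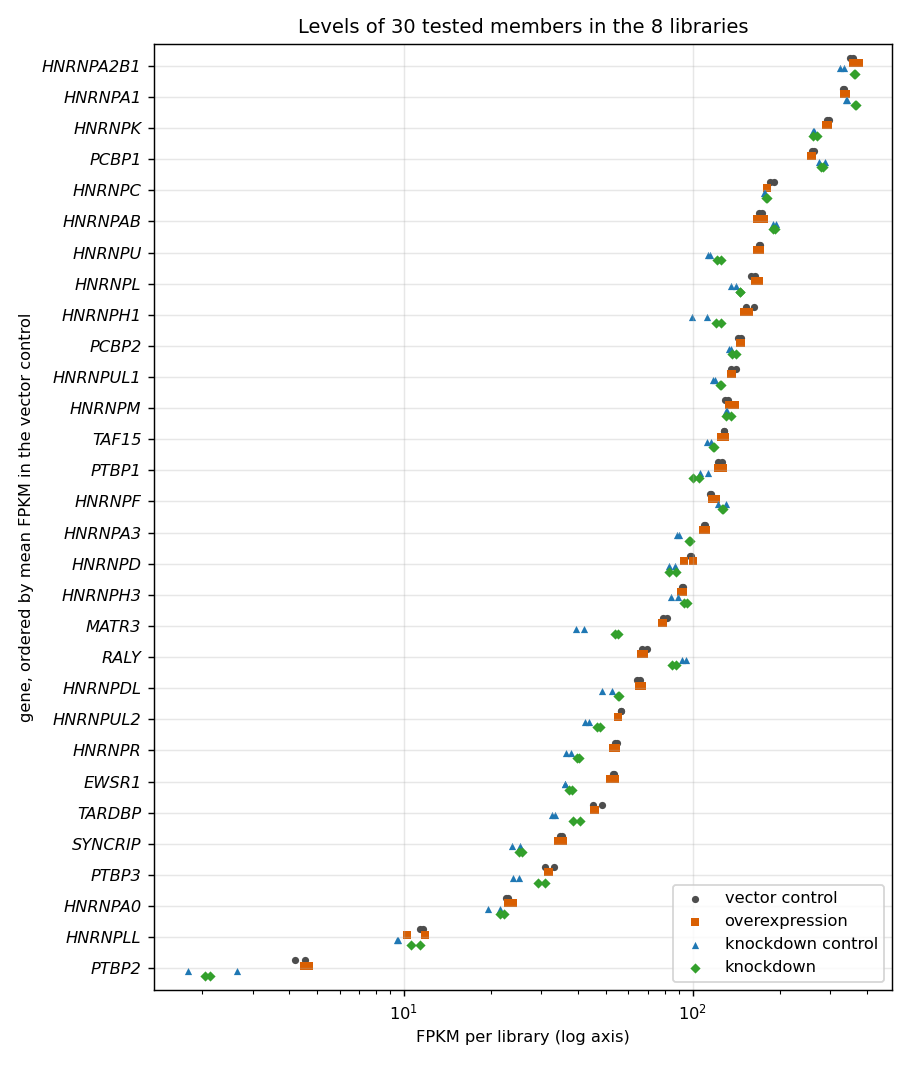
FPKM of the 30 tested members (log axis) in each of the 8 libraries, with a marker per group and genes ordered by their vector control mean. From HNRNPA2B1 at 355 FPKM to PTBP2 at 4.38 FPKM, the groups differ far less than the genes do.

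Together the 31 members held 0.982% and 0.997% of all FPKM in the vector control libraries and 0.986% in both overexpression libraries. Their share was 0.760% and 0.775% in the knockdown control libraries and 0.825% and 0.833% in the knockdown libraries. The 4 groups do not overlap in this share, other than vector control and overexpression. In RNA of a whole culture, fewer cells with a transcript and less RNA per cell cannot be told apart.

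Reads recovered from the values ran from 33662221 to 37508996 per library, and replicates of a group correlated at r = 0.997 to 0.998 over genes. The knockdown control libraries stood apart in having fewer genes at 0 (1341 and 1435, against 2205 to 2327 in the other 6 libraries) and, with the knockdown libraries, a higher FPKM sum (421591 to 437924 against 371927 to 379733). Of 9 markers of an epithelial carcinoma line 8 had a mean of at least 1 FPKM (KRT8 at 1093 to 1317 per library), while EPCAM stayed between 0.39 and 0.86. CDH1, counted among the 8, was at 0.84 to 4.42. The 9 markers summed to 5326 to 5427 FPKM in the vector control and 5456 to 5571 in overexpression. Their sums were 6077 to 6115 in the knockdown control and 5990 to 6154 in the knockdown. Of 4 fibroblast markers only COL1A1 reached a mean of 1 FPKM, with DCN at 0 to 0.0042. The fibroblast markers summed to 0.57 to 0.64 FPKM in the vector control, 0.69 to 0.70 in overexpression, 2.70 to 2.73 in the knockdown control and 1.999 to 2.15 in the knockdown. Of 3 leukocyte markers analysed CD68 was above 1 FPKM and PTPRC peaked at 0.0043, and they summed to 48.8 to 50.2, 49.2 to 50.3, 89.3 to 90.1 and 64.0 to 65.4 FPKM in the same order of groups. The 3 endothelial markers summed to at most 1.69 FPKM in any library, and none had a mean of 1. The part of these cell type markers in the results below was not tested.

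Whether gain of AFAP1-AS1 moved these genes was read from overexpression against vector control. The test was limma on log2(FPKM + 1) with Benjamini-Hochberg adjustment over all 10648 genes tested, and a gene was called at an adjusted p below 0.05. Fold changes are on that log2 scale, on which low genes such as PTBP2 show less than their full change. Limma called 0 of the 30 members, 0 had an unadjusted p below 0.05, and limma-voom on the recovered reads also called 0. Over all genes 0.0657% were called in either direction, 738 of 10648 had an unadjusted p below 0.05, and limma-voom called 27. The members' log2 fold changes lay between -0.06 (HNRNPLL) and 0.06 (PTBP2), with a median of -0.01 beside 0.00 over all genes. HNRNPA1, for example, measured 333 and 335 FPKM in the vector control and 333 and 340 in overexpression. Standard errors were 0.03 to 0.06 except for HNRNPLL (0.07) and PTBP2 (0.11). At 0.03 to 0.06 a change of the size seen in the knockdown libraries for MATR3 would stand out. For HNRNPLL and PTBP2 such a change might not be called, and small shifts were not detectable with 2 libraries a group.

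Loss of AFAP1-AS1 was read from knockdown against knockdown control, the negative control that the labels set beside it. Limma called 10 of 30 members higher and 0 lower, where 22.2% of all genes were called, 11.3% higher and 10.9% lower. At an unadjusted p below 0.05 there were 13 members higher and 1 lower (RALY), where 3776 of all 10648 genes were below it in either direction. Limma-voom on the recovered reads gave the same member counts, and over all genes it called 1610 higher and 1288 lower. Of the 30, 26 had a fold change above 0, and the median was 0.07 beside 0.02 over all genes. With a correction for transcript length and GC content 20 were above 0 and 10 below. The median was then 0.05 beside 0.03 over all genes. The steps were small. Of the 10 called, 6 had a log2 fold change of 0.15 or less, which for HNRNPA2B1 was a rise of 10.7% in mean FPKM.

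MATR3, a nuclear matrix protein that binds RNA, moved most. Its FPKM was 42.2 and 39.4 in the knockdown control and 55.0 and 53.8 in the knockdown, a rise of 0.41 ± 0.04 (SE) on the log2 scale (limma adjusted p = 7.21e-05). The vector control libraries held 78.8 and 81.6 FPKM and the overexpression libraries 78.5 and 79.2, so the knockdown libraries lay between the knockdown control and the other groups without overlap. In GENCODE 29 a second gene entry of the same name shares 42.5% of the exonic length of MATR3, and the sources used here do not give how shared exons were counted.

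PTBP3, the PTB paralog first described in blood cells, and TARDBP, which binds UG repeats, had the same pattern. PTBP3 measured 24.0 and 24.98 FPKM in the knockdown control and 29.3 and 30.97 in the knockdown, a rise of 0.29 ± 0.05 (limma adjusted p = 0.00253). TARDBP measured 32.7 and 33.4 FPKM in the knockdown control and 38.7 and 40.7 in the knockdown, a rise of 0.26 ± 0.05 (limma adjusted p = 0.00333). Vector control values were 33.1 and 30.9 for PTBP3, which the knockdown libraries reach, and 48.8 and 45.3 for TARDBP, which they do not. With a correction for transcript length and GC content the changes were 0.14 for both and no longer called (limma adjusted p = 0.0739 for PTBP3 and 0.0531 for TARDBP). TARDBP shares 28.99% of its exonic length with an entry of another name, AL109811.4, on the same strand.

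Of the other 7 called, HNRNPH1, which binds G tracts, rose most. It measured 112 and 99.4 FPKM in the knockdown control and 125 and 120 in the knockdown, a rise of 0.21 ± 0.05 (limma adjusted p = 0.0164). Its call rests on the second knockdown control library and the first knockdown library, without which the fold change was 0.13 and 0.18 with an adjusted p of 0.14 and 0.0994, and it was also lost with no filter on low values (0.0832). Among the A/B type, HNRNPA2B1 rose by 0.15, HNRNPA3 by 0.13 and HNRNPA1 by 0.10. HNRNPA1 was at 343 and 340 FPKM in the knockdown control and 368 and 364 in the knockdown. The other 3 were HNRNPUL2 (0.13) and HNRNPU (0.11), which bind both chromatin and RNA, and HNRNPH3 (0.13). With the length and GC correction the values of HNRNPA1, HNRNPA2B1, HNRNPA3, HNRNPH3 and HNRNPU were 0.03, 0.03, -0.01, 0.05 and 0.01, with none called. These 5 and HNRNPUL2 each lost their call without 1 or more of the single libraries of the compared groups, at limma adjusted p-values up to 0.0964 for HNRNPA2B1, 0.0997 for HNRNPA3, 0.151 for HNRNPA1, 0.164 for HNRNPUL2, 0.224 for HNRNPU and 0.243 for HNRNPH3. HNRNPU, HNRNPUL2 and HNRNPH3 also lost it without either overexpression library (0.0539 to 0.0543), which enter only the shared spread. HNRNPUL2 shares 44.1% of its exonic length with the readthrough gene HNRNPUL2-BSCL2, and HNRNPU 15.6% with COX20 on the opposite strand. HNRNPA1, HNRNPA3 and HNRNPC have 74, 16 and 9 pseudogenes named after them in GENCODE 29, and the sources used here do not give whether the counts kept these apart.

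The count fell to 3 without the second knockdown control library or the first knockdown library and to 4 without the second knockdown library. MATR3 alone was called higher in all 20 alternative settings, as were 2.48% of all genes tested. Members that were not called ranged from RALY at -0.11 ± 0.04 (limma adjusted p = 0.0695) and PTBP1, the general splicing repressor of the PTB family, at -0.09 ± 0.04 (0.163) to HNRNPLL at 0.19 ± 0.07 (0.0778). HNRNPC (0.02), HNRNPK (0.02), HNRNPM (0.02), HNRNPF (0.01), HNRNPD (0.01), PCBP1 (0.00) and HNRNPAB (0.00) were within 0.03 of 0 on the log2 scale. PCBP2 (0.04), TAF15 (0.05), SYNCRIP (0.05), EWSR1 (0.06), HNRNPL (0.07), HNRNPUL1 (0.08), HNRNPA0 (0.09), HNRNPR (0.11) and HNRNPDL (0.13) were above 0 and not called, and PTBP2 was at -0.04.

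**Figure D2:**
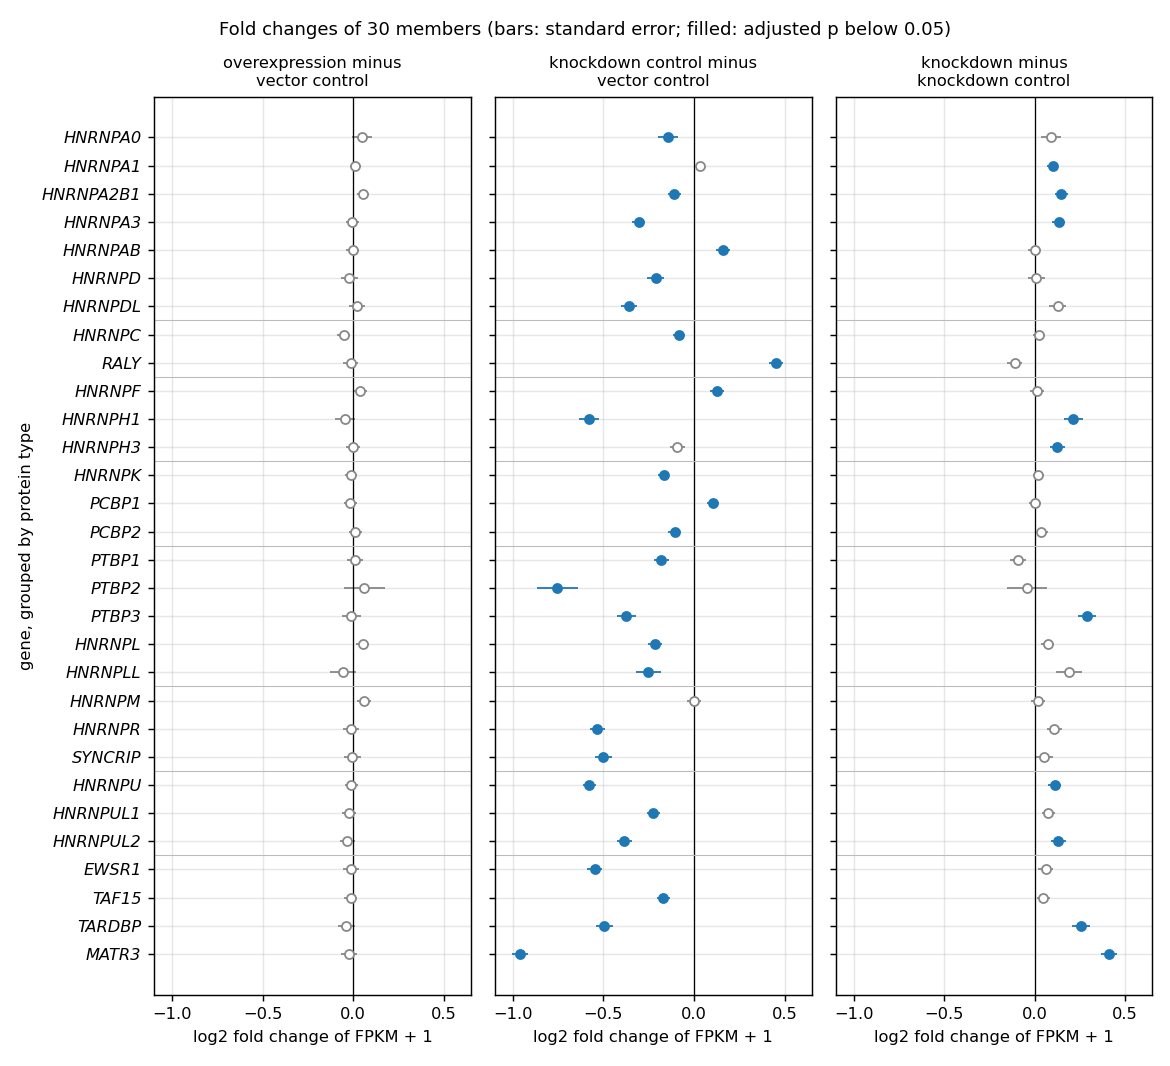
Log2 fold changes of FPKM + 1 for the 30 tested members, grouped by protein type; bars are standard errors and filled symbols an adjusted p below 0.05. In overexpression against vector control all points sit between -0.06 and 0.06, in knockdown against knockdown control most lie above 0, and in knockdown control against vector control 23 filled points lie below 0 and 4 above.

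The control groups were then set against each other, which shows what the knockdown control libraries carry before any knockdown. Limma called 27 of 30 members, with the knockdown control higher for 4 and lower for 23. This was a comparison in which 68.6% of all genes were called, 36.8% higher and 31.8% lower, so the count reads against a high background. The median member was at -0.21, beside 0.04 over all genes. The labels do not describe how the 2 controls differ beyond their names, so any effect of the vector, the reagent or a batch cannot be told apart here. These libraries also serve as controls above, so the values are not independent of those given for the knockdown.

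MATR3 was lowest, at -0.96 ± 0.04 (limma adjusted p = 7.58e-09), or 40.8 ± 1.92 FPKM against 80.2 ± 2.02. PTBP2 measured 4.56 and 4.21 FPKM in the vector control and 1.79 and 2.65 in the knockdown control, at 519 and 523 reads against 215 and 329. It fell by 0.75 on the log2 scale (SE 0.11, limma adjusted p = 7.90e-05). Of the U type, HNRNPU was at 171 ± 0.68 against 114 ± 0.91 FPKM (-0.58 ± 0.03, limma adjusted p = 5.10e-08), with HNRNPUL2 at -0.39 and HNRNPUL1 at -0.22. The FET and related group all fell, with EWSR1 at -0.55, TARDBP at -0.49 and TAF15 at -0.17 beside MATR3. In the R and Q pair, which are near neighbours in sequence, HNRNPR fell by 0.53 and SYNCRIP (hnRNP Q) by 0.50, while HNRNPM, a GU-binding protein, was at 131 FPKM in both groups (0.00 ± 0.04).

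In the A/B type HNRNPDL (-0.36), HNRNPA3 (-0.31), HNRNPD (-0.21), HNRNPA0 (-0.14) and HNRNPA2B1 (-0.11) were lower. HNRNPAB rose by 0.16, from 170 and 173 FPKM to 190 and 194, and HNRNPA1 was not called (0.03 ± 0.03). HNRNPD and HNRNPDL bind AU-rich elements, and HNRNPAB is their near relative. In the PTB and L type all 5 were lower, from PTBP2 to PTBP3 (-0.37), HNRNPLL (-0.25), the CA-repeat binder HNRNPL (-0.21) and PTBP1 (-0.18). Of the KH type HNRNPK (-0.17) and PCBP2 (-0.11) were lower and PCBP1 higher (0.10). Of the C type HNRNPC, which binds U tracts, was lower by a small step (-0.08) and its paralog RALY rose. Of the F/H type HNRNPH1 fell (-0.58 ± 0.05), HNRNPF rose (0.13 ± 0.04) and HNRNPH3 was not called (-0.09 ± 0.04, limma adjusted p = 0.0559). The smallest of these changes turned on single libraries. HNRNPF and PCBP1 were not called without the first vector control or the first knockdown control library (limma adjusted p up to 0.126 and 0.135), HNRNPA2B1 and PCBP2 without the second of either group (up to 0.123 and 0.109). HNRNPA0 was not called without either vector control library or the first knockdown control library (up to 0.299), and HNRNPC without any library other than the first vector control library (up to 0.228). PCBP1 shares 52.2% of its exonic length with PCBP1-AS1 on the opposite strand.

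RALY had the largest rise. It measured 69.4 and 66.6 FPKM in the vector control, 66.5 and 68.0 in overexpression, 94.8 and 92.0 in the knockdown control and 87.7 and 85.1 in the knockdown. Its rise between the controls was 0.45 ± 0.04 (limma adjusted p = 1.21e-06). Both control pairs are separate from each other without overlap, and the overexpression libraries fall in the range of the vector control or just below it.

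**Figure D3:**
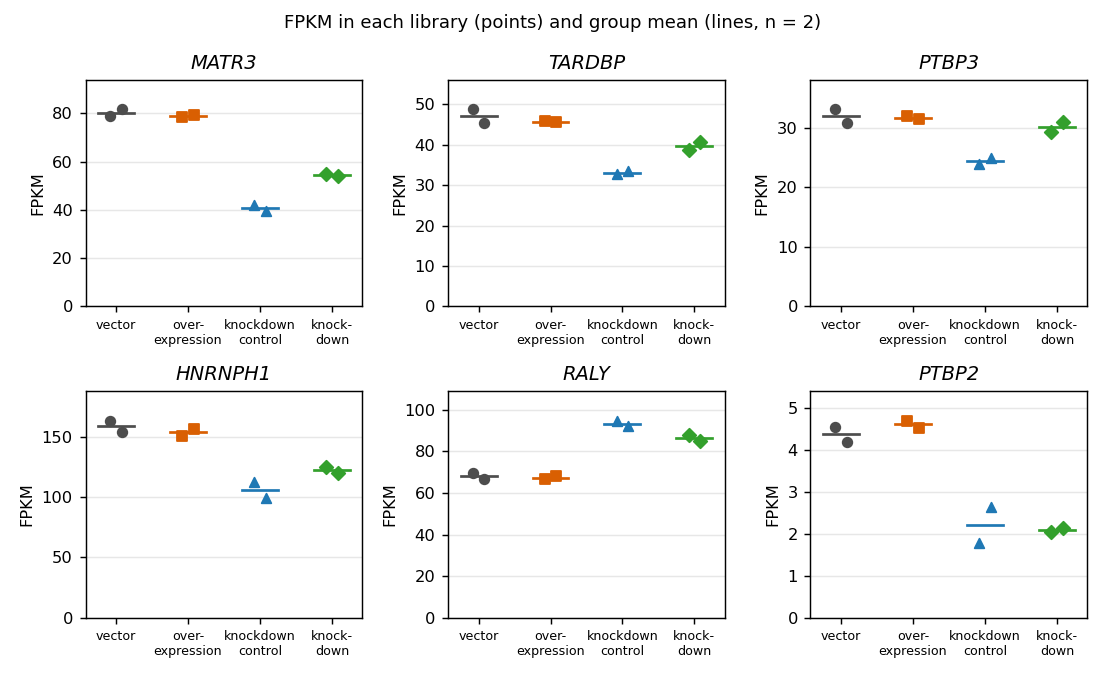
FPKM of MATR3, TARDBP, PTBP3, HNRNPH1, RALY and PTBP2 in each library (points) with group means (lines, n = 2); each axis starts at 0. MATR3 is near 80 FPKM with vector or overexpression, 40.8 in the knockdown control and 54.4 in the knockdown, while RALY runs the other way.

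How many members were called in which direction depended on the scaling. Rescaling each library to the same FPKM sum (TPM) moved the median of all genes from 0.04 to -0.16 in this comparison and from 0.03 to -0.13 in knockdown against vector control. Over all genes that turned 3918 higher and 3391 lower calls into 2360 and 5085. Among the members it gave 1 higher and 28 lower. Quantile scaling gave 1 and 27 among the members, where it gave 3696 and 3622 over all genes. The higher call left under both was RALY, whereas HNRNPF, PCBP1 and HNRNPAB had fold changes below 0 under both. The members' median minus the median of all genes was -0.25 with FPKM as deposited, -0.27 with TPM scaling and -0.45 with quantile scaling. In knockdown against knockdown control TPM scaling gave 1780 higher and 886 lower calls over all genes in place of 1204 and 1165, median-of-ratios scaling 1589 and 972, and no filter on low values 893 and 1381. Members called there numbered 15, 13 and 8, with 0 lower in each.

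Base composition and transcript length moved with the fold changes as well. Over 10632 genes the fold change between the controls had a Spearman correlation of 0.53 with transcript GC content and -0.53 with length, and over the 30 members 0.38 and -0.52. For knockdown against knockdown control the signs were opposite, at -0.46 and 0.29 over all genes and -0.42 and 0.33 over the members. Genes and members share the same libraries, so these are descriptions without a p. The members' transcripts had a median GC content of 42.6% and a median length of 3906 bases, beside 48.7% and 3395.5 over all genes tested. These are values of the longest GENCODE 29 transcript, protein-coding where there is one, which need not be the lengths behind the deposited FPKM. For EWSR1 the recovered reads and FPKM imply a length above the 2654 bases used here, and for RALY a length below 6430. For PTBP2 they imply a length far below the 12014 bases used here, and for HNRNPA1 one below 4121. The corrected sizes rest on the lengths used here. With a correction for length and GC content, 7 members were higher and 15 lower between the controls, where 3041 of 10632 genes were higher and 3222 lower. HNRNPR (0.00), SYNCRIP (-0.02) and PTBP2 (-0.12) were then not called, and HNRNPA0 (0.32), HNRNPC (0.23), HNRNPA2B1 (0.16), PTBP3 (0.15) and HNRNPA3 (0.12) had values above 0. In every one of the 20 alternatives RALY stayed higher and 11 members stayed lower, where 14.5% of all genes stayed higher and 17.4% lower. These 11 were HNRNPDL, HNRNPH1, PTBP1, HNRNPL, HNRNPU, HNRNPUL1, HNRNPUL2, EWSR1, TAF15, TARDBP and MATR3. Their sizes moved with the length and GC correction. MATR3 was then at -0.58, HNRNPU at -0.19, HNRNPDL at -0.21 and TARDBP at -0.14, nearer to 0, while HNRNPL (-0.47), PTBP1 (-0.37), TAF15 (-0.39) and HNRNPUL1 (-0.39) were farther from it. EWSR1 was at -0.76, HNRNPH1 at -0.66 and HNRNPUL2 at -0.36.

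**Figure D4:**
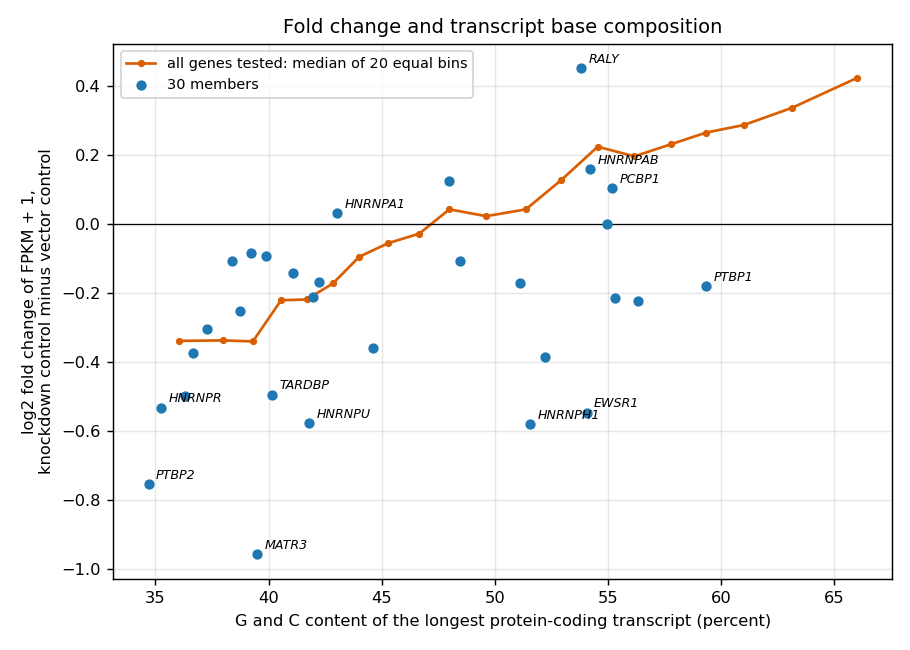
Log2 fold change of FPKM + 1 between the control groups (knockdown control minus vector control) against transcript GC content, for the 30 members (points) and as medians of 20 equal bins of all genes tested (line). The line rises with GC content, and MATR3, HNRNPH1, HNRNPU and EWSR1 lie below it while RALY lies above it.

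Knockdown against vector control shares its vector libraries with both the comparison of controls and the overexpression comparison, and its knockdown libraries with the comparison above. Limma called 5 members higher and 17 lower, in a comparison with 62.9% of all genes called, 34.1% higher and 28.8% lower. RALY (0.34), HNRNPAB (0.16), HNRNPF (0.14), HNRNPA1 (0.13) and PCBP1 (0.10) were higher, of which only RALY was so with TPM or quantile scaling. PTBP2 (-0.80), MATR3 (-0.55), EWSR1 (-0.49), HNRNPU (-0.47), SYNCRIP (-0.45), HNRNPR (-0.43) and HNRNPH1 (-0.37) fell most. With the length and GC correction HNRNPR (-0.06, limma adjusted p = 0.251), SYNCRIP (-0.12, 0.0642) and TARDBP (0.00, 0.99) lost their calls, and PTBP2 (-0.32), MATR3 (-0.30) and HNRNPU (-0.19) were called at smaller sizes, with EWSR1 at -0.64 and HNRNPH1 at -0.41. Members called between the controls but not here were PTBP3 (-0.08), HNRNPA0 (-0.05), HNRNPA2B1 (0.04), HNRNPC (-0.06), HNRNPLL (-0.06) and PCBP2 (-0.07). HNRNPF was not called without the second knockdown library (limma adjusted p = 0.0506), and PCBP1 not without the first vector control or first knockdown library (up to 0.111). RALY stayed higher and 13 members stayed lower in all alternatives, beside 14.8% and 16.3% of all genes.

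Whether the overexpression effect and the knockdown effect differ was tested as the difference of the differences in the same limma fit. It called 3 members, each lower (overexpression effect below the knockdown effect), where 10.2% of all genes were called and 4.02% were lower. They were MATR3 (-0.43 ± 0.06, limma adjusted p = 0.0012), TARDBP (-0.29 ± 0.07, 0.02) and PTBP3 (-0.30 ± 0.07, 0.0249). For MATR3 the overexpression effect was -0.02 and the knockdown effect 0.41. Only MATR3 held in every alternative, as did 0.733% of all genes in that direction. TARDBP and PTBP3 were lost with the length and GC correction (0.14 and 0.246), with no filter on low values (0.0564 and 0.0635) and without the first vector control library, the second overexpression library, the first knockdown control library or the second knockdown library. PTBP3 was also lost without the first overexpression library. HNRNPH1 was at -0.26 ± 0.08 (limma adjusted p = 0.0549).

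Ratios of paralogs within a library are free of any factor that scales a whole library, though not of base composition. The pairs were picked after their values were seen, so the ratios are a description. HNRNPF, read at 115 and 116 FPKM in the vector control and at 130 and 122 in the knockdown control, and HNRNPH1 exchanged rank. Their ratio was 0.706 and 0.754 in the vector control, 0.774 and 0.769 in overexpression, 1.16 and 1.23 in the knockdown control and 1.01 and 1.06 in the knockdown. RALY to HNRNPC ran from 0.361 ± 0.019 in the vector control to 0.525 ± 0.014 in the knockdown control and 0.478 ± 0.0066 in the knockdown. Groups other than vector control and overexpression were separate in both ratios. HNRNPAB to HNRNPD (1.74, 1.77, 2.26 and 2.25 in the order of groups above) and PCBP1 to PCBP2 (1.79, 1.76, 2.08 and 2.02) were higher in the knockdown control and knockdown libraries than in the other 4. SYNCRIP to HNRNPR had group means within 0.632 and 0.657.

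In the PTB family PTBP3 to PTBP1 was 0.257 in the vector control, 0.253 in overexpression, 0.223 in the knockdown control and 0.292 in the knockdown, the highest of the groups. PTBP2 to PTBP1 was 0.0352 and 0.0368 in the first pair of groups and 0.0201 and 0.0203 in the second. PTBP1 transcripts have the highest GC content of the members (59.4%) and PTBP2 transcripts the lowest (34.7%), with PTBP3 at 36.6%. With the length and GC correction the fold changes between the controls were -0.12 for PTBP2 (limma adjusted p = 0.373), 0.15 for PTBP3 (0.0199) and -0.37 for PTBP1. With that correction both PTBP2 and PTBP3 lie above PTBP1, where the ratios from uncorrected FPKM have them below it. For PTBP2 the correction used a length far above the one that its reads and FPKM imply, so its corrected value is uncertain. PTBP1 is known to repress an exon of PTBP2 and of PTBP3 transcripts. Values per gene do not show exon use, which is not analysed here.

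**Figure D5:**
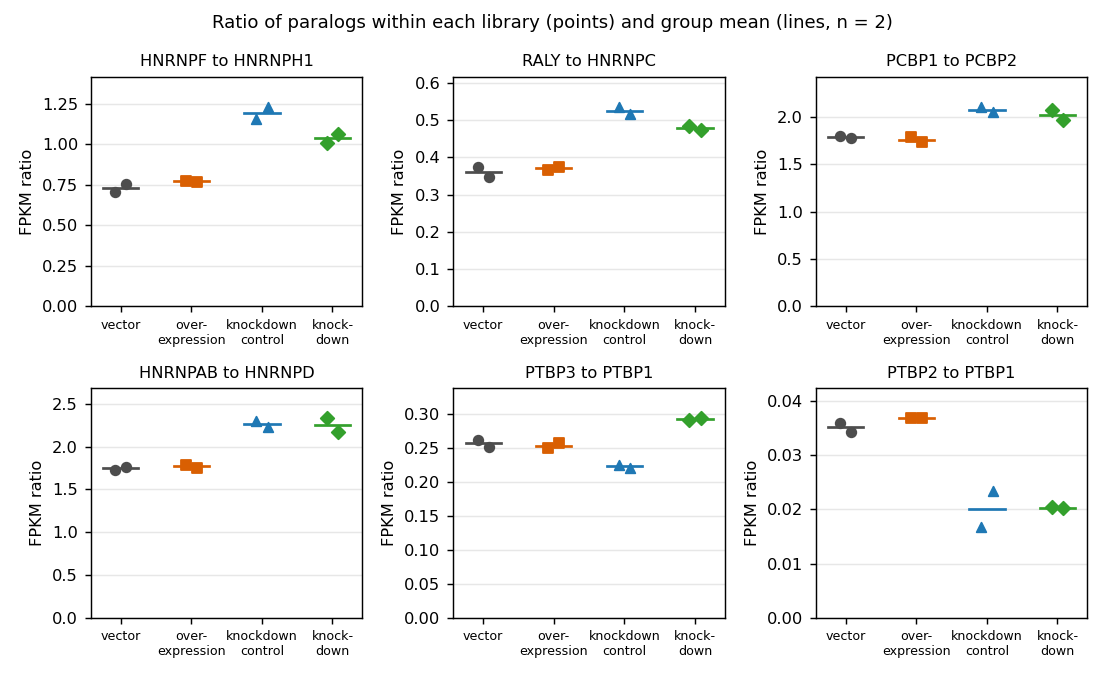
FPKM ratio of paralogs within each library (points) with group means (lines, n = 2) for 6 pairs; each axis starts at 0. HNRNPF to HNRNPH1 is below 0.8 with vector or overexpression and above 1 in the other groups, and PTBP3 to PTBP1 is highest in the knockdown.

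Of the families with paralogs called in opposite directions between the controls, the F/H pair and the C pair had the widest gaps, a choice made after the values were seen. The opposite directions did not hold in every setting. With TPM scaling HNRNPF was at -0.09, on the side of HNRNPH1, and with the length and GC correction HNRNPC was at 0.23, on the side of RALY. Sequence before a start is shown for HNRNPF, HNRNPH1 and HNRNPC, the genes of these pairs with a stretch outside exons. The larger changes between the controls were those of HNRNPH1 (-0.58) and RALY (0.45), beside HNRNPF (0.13) and HNRNPC (-0.08). The starts are not of the same kind. Each is the part of the promoter window of RefSeq (GRCh38.p14) that lies outside the gene's exons in GENCODE 29, printed 5′ to 3′ on the minus strand, on which all 3 genes lie. The window of RALY falls inside an exon of that annotation and is not printed. Capitals mark the CCAAT box (the letters of its name), the GC box (GGGCGG) and the TATA box (TATAAA). They also mark CCGGAA, an ETS-type site that is called the ETS core here. Each was searched on both strands. The HNRNPF stretch lies at chr10:43408883-43409089, before the outer of its 2 starts in the table of windows but inside the gene's span, between exons of a longer transcript. That of HNRNPH1 lies at chr5:179634785-179635034, before the outermost of its 4 RefSeq starts, and that of HNRNPC, with 1 start, at chr14:21269495-21269692.
HNRNPF: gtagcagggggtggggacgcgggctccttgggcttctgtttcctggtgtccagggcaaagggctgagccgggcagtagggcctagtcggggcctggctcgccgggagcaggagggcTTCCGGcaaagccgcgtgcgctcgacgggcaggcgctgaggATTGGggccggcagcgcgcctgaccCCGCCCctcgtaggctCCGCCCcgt
HNRNPH1: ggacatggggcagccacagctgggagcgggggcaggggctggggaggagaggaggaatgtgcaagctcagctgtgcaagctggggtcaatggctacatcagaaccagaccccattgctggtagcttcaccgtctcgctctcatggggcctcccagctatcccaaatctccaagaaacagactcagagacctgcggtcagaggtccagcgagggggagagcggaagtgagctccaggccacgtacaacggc
HNRNPC: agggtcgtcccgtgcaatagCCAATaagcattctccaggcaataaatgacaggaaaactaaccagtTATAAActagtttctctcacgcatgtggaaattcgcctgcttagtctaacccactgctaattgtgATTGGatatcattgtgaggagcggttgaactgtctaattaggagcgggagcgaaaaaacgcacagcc
The stretch of HNRNPF is 72.9% G and C and holds 2 GC boxes, 1 CCAAT box and 1 ETS core. That of HNRNPC is 44.9% G and C and holds 1 TATA box and 2 CCAAT boxes. The HNRNPH1 stretch has 0 matches to these letters, which says only that they are not in this stretch. It holds gcggaa, which differs from CCGGAA in its first base, so the lack of an ETS core there depends on the letters chosen. RefSeq windows of 250 bases before to 50 after a start were matched for 29 members (42 windows), and TAF15 and HNRNPA1 were not matched. A GC box was in 31 of the 42 (73.8%) beside 45.0% of all 35116 windows, a CCAAT box in 20 (47.6%) beside 34.6%, an ETS core in 11 (26.2%) beside 17.2% and a TATA box in 3 (7.14%) beside 11.5%. The member windows had a median of 66.3% G and C and 29 CpG dinucleotides, beside 58.7% and 14. A match is a description of the letters and not a binding site.

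Other RNA-processing genes, in 6 lists chosen with earlier results known, were counted in the same fit. Overexpression against vector control had 0 limma calls in each list and 0 by limma-voom, with 1 hnRNP-related protein and 2 snRNP proteins at an unadjusted p below 0.05. The genes with the smallest p were PCBP4 (0.19) and RAVER1 (-0.11), RBM5 (-0.14) and CELF1 (0.07), DDX17 (-0.10) and YBX3 (0.04), SNRPB (0.09) and SNRNP70 (0.09), PRMT1 (0.05) and TNPO2 (0.07), and SMG8 (-0.11) and UPF2 (0.08), a pair for each list, none of them called. In knockdown against knockdown control 11.3% of all genes were called higher and 10.9% lower, and the small counts of the lists read against these shares. Import and arginine methylation factors had 2 of 7 higher and 0 lower. These were TNPO1, the import receptor of hnRNP A proteins and FET proteins (0.21 ± 0.04, limma adjusted p = 0.00518), and KPNB1, the general import receptor (0.17). Paraspeckle and nuclear RNP partners had 2 of 11 higher and 1 lower, with the helicases DDX3X at 0.23 and DHX9 at 0.14 and the cold shock protein YBX3 at -0.27 ± 0.04 (limma adjusted p = 0.000616). The hnRNP-related proteins had 1 of 9 in each direction, RBMX (hnRNP G) at 0.14 and the cold-inducible RBM3 at -0.17. Other splicing regulators had 1 of 17 in each direction, MBNL1 at 0.20 and RBM4 at -0.27. The snRNP proteins had 2 of 19 higher and 1 lower, with SNRNP200 at 0.15, PRPF4 at 0.19 and the Sm protein SNRPF at -0.14. Nonsense-mediated decay had 1 of 10 higher, UPF2 at 0.26, and UPF3B was next (0.19, limma adjusted p = 0.0965). DHX9 and SNRPF were named after their values were seen. With the length and GC correction TNPO1 was at 0.07 (limma adjusted p = 0.294), MBNL1 at 0.08 and UPF2 at 0.14, none of them called, while DDX3X (0.13) and YBX3 (-0.16) were called at smaller sizes. KPNB1, RBMX, MBNL1, RBM4, SNRNP200, PRPF4 and UPF2 each lost their call without 1 or more single libraries, at limma adjusted p-values from 0.0525 for KPNB1 to 0.285 for PRPF4.

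Between the controls, where 31.8% of all genes were lower and 36.8% higher, the counts of each list moved with the scaling. Nonsense-mediated decay had 8 of 10 lower and 0 higher, with the kinase SMG1 at -1.25 and UPF3B at -1.13, and a list median of -0.33. Other splicing regulators had 12 of 17 lower and 1 higher, with MBNL1 at -0.83, RBM39 at -0.59 and RBM4 at 0.26. Paraspeckle and nuclear RNP partners had 8 of 11 lower and 2 higher, with DDX3X at -0.77, DDX5 at -0.53, ILF2 at 0.13 and YBX1 at 0.11. Import and methylation had 5 of 7 lower and 1 higher, with TNPO1 at -0.999, KPNB1 at -0.51, PRMT3 at -0.54, PRMT5 at -0.30, TNPO2 at -0.21 and PRMT1 at 0.16. The hnRNP-related list had 4 of 9 lower and 2 higher, with CIRBP at -0.59, RBMX at -0.29, RBM14 at -0.24, MSI2 at -0.23, PCBP4 at 0.65 and RBM3 at 0.24. Of these, the genes beyond the pair with the smallest p in each list were named after their values were seen. The snRNP proteins had 9 of 19 higher and 6 lower, with SNRNP200 at -0.96 and PRPF8 at -0.92, and a median of 0.17. TPM scaling, which gives 2360 higher and 5085 lower calls over all genes, turned the snRNP counts to 6 higher and 8 lower, and the length and GC correction to 5 and 10. In the other lists TPM scaling gave 9 lower and 0 higher for nonsense-mediated decay, 16 and 0 for other splicing regulators, 11 and 0 for paraspeckle partners, 6 and 0 for import and methylation, and 7 and 1 for the hnRNP-related list. In knockdown against vector control, with 28.8% of all genes lower and 34.1% higher, the lower and higher calls were 7 and 0 for nonsense-mediated decay, 10 and 2 for other splicing regulators, 8 and 1 for paraspeckle partners, 5 and 2 for import and methylation, 3 and 1 for the hnRNP-related list, and 6 and 9 for snRNP proteins (7 and 5 with TPM scaling). SMG1 was at -1.09 and UPF3B at -0.94, MBNL1 at -0.63 and RBM39 at -0.50, DDX3X at -0.54 and DDX5 at -0.44, TNPO1 at -0.79 and PRMT3 at -0.51, CIRBP at -0.72 and PCBP4 at 0.61, and PRPF8 at -0.83 and SNRNP200 at -0.81. The difference between the overexpression and knockdown effects was called for YBX3 (0.31 ± 0.06, limma adjusted p = 0.00521), DDX3X (-0.23 ± 0.05, 0.0221), TNPO1 (-0.25 ± 0.06, 0.0249) and SNRPF (0.23 ± 0.07, 0.0448). Of these only YBX3 kept its call without each single library. The other 3 reached limma adjusted p-values of up to 0.0843 for DDX3X, 0.0947 for TNPO1 and 0.161 for SNRPF. With the length and GC correction TNPO1 was at -0.10 (limma adjusted p = 0.358) and DDX3X at -0.12 (0.148), neither called. YBX3 was at 0.19 and lost its call with that correction and the replicate block together (0.0535). SNRPF also lost its call with no filter and under each other scaling (0.0648 to 0.101). Next by p in their lists, and not called, were RAVER1 (-0.24), RBM3 (0.14), RBM5 (-0.35), RBM4 (0.32), SNRPB (0.16), KPNB1 (-0.17), SMG8 (-0.25) and UPF3B (-0.24).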

How the data were processed

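RNA-seq of 8 A549 libraries in 4 groups of 2 was analysed from a table of FPKM values per gene symbol that the authors deposited. Tools in the submitters' processing notes are featureCounts, HTSeq, HISAT2 and R 3.2.0, with the build hg38 (GRCh38). For annotation, strand use and multi-mapping reads, the treatment is not given in the sources used. FPKM steps gave whole reads within 0.02 for all 17056 genes, so depth is known from the recovered reads.

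Genes averaging 1 FPKM or more (10648) were tested as log2(FPKM + 1) with limma 3.58.1 under R 4.3.3, two-sided, using eBayes with trend. All 8 libraries entered a group-only fit with 4 residual degrees of freedom, in 5 comparisons, with Benjamini-Hochberg adjustment and calls at an adjusted p below 0.05. With 2 libraries a group, no exact permutation test can reach 0.05. The script was tested on simulated data. The 20 alternatives were no filter, a minimum of 5 FPKM, pseudocounts of 0.1 and 0.5, median-of-ratios, TPM and quantile scaling, the compared libraries alone, a replicate block, voom on recovered reads, a length and GC correction (GENCODE 29 transcripts) with and without the block, and leaving out each library.

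The members and lists were chosen with earlier results of these data known. All 31 members are named, and of each other list the 2 genes with the smallest p per comparison. Leukocyte marker CD3E is not analysed here. Gene positions come from RefSeq and exon overlaps from GENCODE 29.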

Additional observations from a re-analysis of the deposited data

How the results depend on the processing

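Members called in overexpression against vector control numbered 0 under every alternative, and those between the controls (27) and in knockdown against vector control (22) stayed within 1.5 times, at 23 to 26 and 21 to 22 when libraries were left out. In knockdown against knockdown control the length and GC correction with replicate block called 1710 of 10632 genes, and the count of 10 became 6. It was 3 to 10 when libraries were left out. The 6 are not all among the 10, and they include members that the main fit did not call. HNRNPA1, HNRNPA2B1, HNRNPA3, HNRNPH3, HNRNPU, PTBP3 and TARDBP were not called with that correction. For the difference between effects the 3 became 1 with no filter, 9 with TPM scaling and 6 with voom. Over all genes these settings called 795 of 17056, 1313 of 10648 and 1701 of 10648. The cause was not tested.

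Of 4153 values for single genes under alternatives, 3840 kept their side of the threshold, 167 lost and 86 gained a call and 60 turned in sign with a call in either setting. A further 106 changed sign without a call. With the length and GC correction, alone or with the block, HNRNPA3 was at -0.0093 in knockdown against knockdown control. Between the controls it gave 0.32 for HNRNPA0, 0.16 for HNRNPA2B1, 0.12 for HNRNPA3, -0.17 for HNRNPAB, 0.23 for HNRNPC, -0.25 for PCBP1, 0.15 for PTBP3, 0.0503 for HNRNPLL and -0.24 for HNRNPM. In knockdown against vector control it gave 0.30 for HNRNPA0, 0.11 for HNRNPA3, -0.0774 for HNRNPAB, 0.14 for HNRNPC, -0.15 for PCBP1, 0.29 for PTBP3, -0.14 for HNRNPM and 0.00078 for TARDBP. TPM and quantile scaling gave, between the controls, -0.19 and -0.28 for HNRNPA1, -0.0586 and -0.0380 for HNRNPAB, -0.0927 and -0.0891 for HNRNPF, -0.11 and -0.23 for PCBP1, and -0.22 and -0.24 for HNRNPM. In knockdown against vector control they gave -0.0453 and -0.13 for HNRNPA1, -0.14 and -0.26 for HNRNPA2B1, -0.0173 and -0.0152 for HNRNPAB, -0.0384 and -0.0441 for HNRNPF, -0.14 and -0.11 for HNRNPH3, -0.0721 and -0.15 for PCBP1, and -0.16 and -0.18 for HNRNPM.

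Over all genes, calls in overexpression against vector control went from 7 to 0 with no filter (where 0 members were called), 27 with voom, 12 with the length and GC correction, 11 with a minimum of 5 FPKM and 6 to 12 without a library. The 2369 in knockdown against knockdown control went to 1176 to 2315 without a library. The 1087 for the difference went to 1701 with voom, 709 with the correction and block, and 609 to 823 without a library. Same-numbered libraries did not deviate together (correlations of -0.06 to 0.06), so the numbers are not treated as a pairing. The replicate block gave 0, 10, 26, 22 and 4 members called in the 5 comparisons. Over all 10648 genes it called 8, 2315, 7320, 6707 and 1080 in the same order.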
